A study of Homo sapiens and Homo sapiens
Mus musculus and Mus musculus with 9 samples.

Results

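The cadherins and protocadherins are calcium-dependent adhesion receptors of the cell surface. The 91 genes described here were chosen by a rule that uses no values, set with earlier results of these data known. They are the protein-coding rows of the authors' comparison table whose symbols begin with CDH, CDHR or PCDH and a number or family letter. Genes of the X and Y chromosomes were left out. The table lists 41713 genes in all, 19939 of them protein-coding. By family, the members are 5 type I classical cadherins, 13 type II classical cadherins, 10 atypical cadherins, 10 non-clustered protocadherins, and 15 alpha, 16 beta and 22 gamma protocadherins of the gene clusters.

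RNA was sequenced in 3 libraries of C4-2B cells alone and in 3 of mixed co-cultures of C4-2B with MC3T3-E1 cells at 1 to 30. The C4-2B line derives from human prostate cancer and was labeled with GFP for the co-cultures, and the MC3T3-E1 line holds mouse osteoblasts. Both groups carried the genotype WT, received no drug and were grown in α-MEM with 10% FBS, and the RNA of a co-culture came from both cell lines without sorting. Another 3 libraries, of MC3T3-E1 grown alone, were not analysed here. The labels do not say whether the replicates were separate cultures.

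The authors separated human from mouse reads with 3 pipelines, Xenome, XenofilteR and Kallisto. The value used for each gene and pipeline is the authors' mean count, which is the mean over the libraries of both groups of the read counts divided by the DESeq2 size factors. It is a single value over co-culture and C4-2B alone, so by itself it gives no spread and no difference between them. The authors' own fold changes and p-values were not used, and no test between the groups was made. To compare genes, the mean count was expressed per 1000000 of the summed mean count of its pipeline (scaled mean count), and this was divided by the exonic length in kilobases (level).

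Classical cadherins bind the same cadherin on the neighboring cell through their extracellular repeats, and their cytoplasmic tails hold the catenins that connect them to actin. E-cadherin, encoded by CDH1, holds epithelial cells together at adherens junctions, N-cadherin (CDH2) is typical of neural and mesenchymal cells, and cadherin 11 (CDH11) is the osteoblast cadherin. Clustered protocadherins are best known from neurons, where each cell uses a few variable exons of the alpha, beta and gamma clusters as a label of its own surface.

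Human reads were told apart from mouse reads by sequence, so the longest coding stretch that a human member shares letter for letter with a mouse transcript was measured. A read that lies within such a stretch has no base that differs between the species. Reads came in pairs, however, and the mate of such a read may lie outside the stretch. Of the 91 members, 38 had such a stretch at least as long as 1 read of 50 bases. All 15 alpha protocadherins are among the 38, each with a stretch of 95 bases found in the same mouse genes. They are thus not separate cases, and the same count over all protein-coding genes was not made. The stretches of 4 members are shown because their counts are discussed with them. Capitals mark the identical part, lower case marks up to 20 bases on each side, and each is written 5′ to 3′ on the coding strand of GRCh38 from GENCODE release 44. The stretch of CDH8 has 143 bases (chr16:61653784-61653966, minus strand), that of CDH11 has 53 (chr16:64998721-64998813, minus strand), that of PCDH9 has 125 from its start codon on (chr13:67228296-67228440, minus strand), and that of PCDH7 has 159 and joins 2 exons within chr4:30724558-30920312 on the plus strand.
CDH8: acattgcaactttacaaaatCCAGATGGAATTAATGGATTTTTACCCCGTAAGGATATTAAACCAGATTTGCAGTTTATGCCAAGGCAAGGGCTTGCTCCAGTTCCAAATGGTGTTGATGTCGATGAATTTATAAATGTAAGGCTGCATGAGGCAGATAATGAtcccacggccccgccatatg
CDH11: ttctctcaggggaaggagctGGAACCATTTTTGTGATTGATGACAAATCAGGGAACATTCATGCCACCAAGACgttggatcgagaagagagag
PCDH9: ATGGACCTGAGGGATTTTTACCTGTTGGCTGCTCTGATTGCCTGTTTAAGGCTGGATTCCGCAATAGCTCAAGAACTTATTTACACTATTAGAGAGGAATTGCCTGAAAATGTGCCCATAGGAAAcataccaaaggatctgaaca
PCDH7: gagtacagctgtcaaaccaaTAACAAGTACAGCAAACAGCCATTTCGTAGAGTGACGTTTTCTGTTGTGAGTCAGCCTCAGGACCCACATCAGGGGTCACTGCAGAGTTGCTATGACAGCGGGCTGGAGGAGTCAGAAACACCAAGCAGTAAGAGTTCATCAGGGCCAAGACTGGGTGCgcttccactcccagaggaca

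The mean counts of Xenome and XenofilteR still hold whole reads. A mean is the sum over 6 libraries of reads divided by 6 times the size factor, and the size factors could be solved from low values. For Xenome they were 5.93, 5.31, 4.86, 0.427, 0.145 and 0.109, here called libraries 1 to 6. No label ties a solved library to a sample, and whether libraries 4 to 6 are the co-cultures is not known, so they are in no group and enter no comparison between groups. Reads were solved for 76 of the 86 members that Xenome lists, and 9 more lay above the searched range of mean counts up to 65. A count of 3 reads, taken as the floor, is a normalized count of 0.506 in library 1 and of 27.55 in library 6, so the values of low members in libraries 4 to 6 rest on reads under this floor.

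CDH1 made up most of the cadherin mRNA in the pooled libraries. Xenome gave it a mean count of 25672, XenofilteR 25701 and Kallisto 26161, which was 88.0%, 88.1% and 73.5% of the summed mean count of all members. With Xenome, CDH1 had a level of 99.7 scaled mean counts per kilobase, and the next member, PCDH1, one of 4.68. The members together summed to a scaled mean count of 689 with Xenome and 768 with Kallisto. Of the 91 members, 31 (34.1%) had a mean count of at least 10 with Xenome, against 66.9% of all protein-coding genes. CDH1 lies on chromosome 16 of GRCh38 from 68737292 to 68835541, and no coding stretch of 31 bases or more of it was found in a mouse transcript.

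The other type I cadherins were far below CDH1. CDH3 (P-cadherin, of basal epithelium), the neighbor of CDH1 on chromosome 16 from 68636189 to 68722616, had a level of 1.34 scaled mean counts per kilobase with Xenome and mean counts of 362, 372 and 374 with Xenome, XenofilteR and Kallisto. CDH15 (M-cadherin, of muscle cells) had mean counts of 64.9, 64.9 and 53.6. CDH4 (R-cadherin, of retina and nerve) had 17.4 with Xenome and XenofilteR and 24.9 with Kallisto. CDH2 (N-cadherin) had the lowest mean counts of the type I genes, 4.34, 2.06 and 2.51, with a level of 0.0119 scaled mean counts per kilobase with Xenome.

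Among the 13 type II cadherins, CDH24 alone passed a mean count of 50 with Xenome, and 5 did with Kallisto, led by CDH12 at 602. CDH24, or cadherin 24, had mean counts of 293, 293 and 281 in Xenome, XenofilteR and Kallisto. The next were CDH11 with 49.6, CDH18 with 19.2 and CDH8 with 12.4, all in Xenome. CDH7 reached 5.52 and CDH19, known from Schwann cell precursors, 4.56. CDH12, CDH9, CDH6, CDH20 and CDH5 (VE-cadherin, of endothelium) lay between 0.116 and 0.756 with Xenome. CDH10 and CDH22 were not listed by Xenome or XenofilteR, and Kallisto gave them 0 and 1.18.

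CDH11 was a member on which the pipelines that filter reads differed. Xenome gave it a mean count of 49.6, XenofilteR 22.0 and Kallisto 18.7. Its stretch shown above is a little longer than 1 read, and 2.93% of its 31-base sequences occurred in mouse transcripts. Of the markers of osteoblasts and mesenchyme, 6 of 11 reached a mean count of 10 with Xenome, against 66.9% of all protein-coding genes. COL1A1, a collagen gene of bone matrix, was highest at 3384, with 4557 for XenofilteR and 2471 for Kallisto. ALPL, an osteoblast phosphatase, had the lowest at 0.103. What part sequence shared with the mouse had in these values was not tested.

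The atypical cadherins were led by CDHR3, CDH26, CDHR5 and CDHR2 with Xenome and XenofilteR, and by CDH13 with Kallisto. CDHR3, known as the receptor of rhinovirus C on airway epithelium, had mean counts of 177, 178 and 95.6 in Xenome, XenofilteR and Kallisto. CDH26 stood at 120, 120 and 97.3 and CDHR5, which joins the microvilli of the intestinal brush border, at 58.6, 58.5 and 54.6. CDHR2, its partner in the brush border, had 46.2, 46.0 and 42.1. T-cadherin (CDH13), held by a lipid anchor, had 8.88 with Xenome and 140.8 with Kallisto. CDH23, of the tip links of hair cells, lay at 9.26 and 9.08, and CDHR4, CDH16 and CDH17 were at or below 1.99 with Xenome. CDHR1, of photoreceptors, was not listed by Xenome.

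PCDH1 and PCDH7 had the highest mean counts of the non-clustered protocadherins with Xenome and XenofilteR, and PCDH9 and PCDH1 with Kallisto. PCDH1, an adhesion gene of epithelia, had mean counts of 1174, 1173 and 1174 in Xenome, XenofilteR and Kallisto. Of its 31-base sequences, 4.63% were found in mouse transcripts. PCDH7 had 279.9 in Xenome and XenofilteR and 352 in Kallisto, with the longest shared stretch of all members. PCDH12, known from endothelium, had 27.1, 27.1 and 50.6. PCDH20 and PCDH9 had 17.9 and 12.3 with Xenome but 927 and 1736 with Kallisto. PCDH15, another tip link gene, had 2.57 and 73.4, and PCDH8, PCDH10 and PCDH17 were at or below 0.188 with Xenome.

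**Figure D1:**
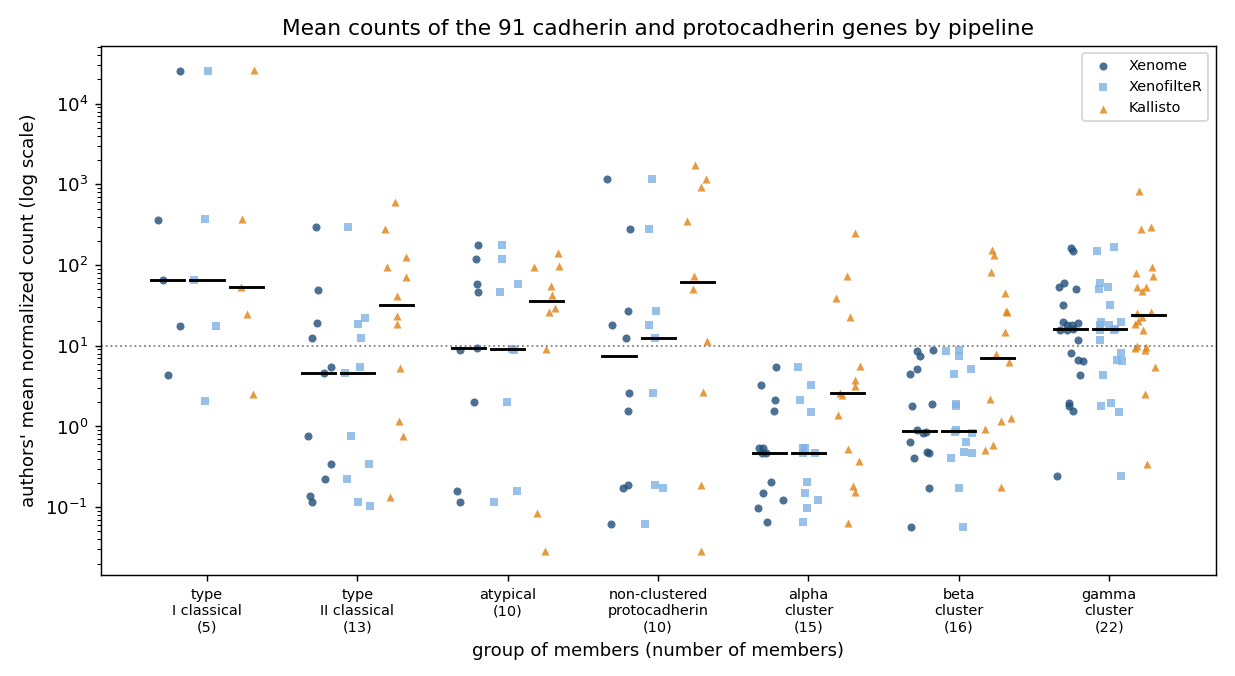
The authors' mean normalized count of each member (log axis) by family, with 1 point per gene for Xenome, XenofilteR and Kallisto, black bars at the medians of values above 0, and a dotted line at 10. CDH1 stands alone at about 25672 with Xenome, and the Kallisto medians lie above those of both other pipelines in each family but type I.

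The clustered protocadherins lie side by side on chromosome 5 of GRCh38, from the start of PCDHA1 at 140786136 to the end of the gamma cluster at 141512981. The members of the alpha and of the gamma cluster share constant exons at their 3′ end. Among these is 1 of 59 coding bases in all 15 alpha members (140978949 to 140979007) and 1 of the same length in all 22 gamma members (141494807 to 141494865), which are identical at 39 of 59 positions. Because of shared exons, between 21.4% and 56.6% of the exonic bases of an alpha member belonged to other genes too, and between 27.5% and 64.4% for a gamma member. The beta members, which are mostly single-exon genes with no constant part, shared at most 9.54%. How the authors' counting treated a read in a shared exon is not given in the sources used here, so values of single alpha and gamma members are uncertain.

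The 3 clusters differed in mean count with Xenome. The gamma cluster had 14 of 22 members with a mean count of at least 10, and the alpha and beta clusters had 0 of 15 and 0 of 16, where 66.9% of all protein-coding genes reached it. With Kallisto these counts were 15 of 22, 4 of 15 and 7 of 16. The summed mean count was 676 for gamma, 43.2 for beta and 15.1 for alpha members, or 2.32%, 0.148% and 0.0518% of that of all members, and with Kallisto it was 2000, 504 and 404, or 5.62%, 1.42% and 1.14%. PCDHGC3, one of the C-type genes at the end of the cluster, led the gamma members at 164.3, followed by PCDHGA8 at 149 and PCDHGB5 at 60.2, and PCDHGC5 was the lowest at 0.241. The leading beta members were PCDHB14, PCDHB13 and PCDHB2, with 8.95, 8.71 and 7.37. The order of PCDHB14 and PCDHB13 is not firm. It turned to 9.36 against 10.46 without library 5 and to 8.90 against 10.46 without library 6. Leaving out any of libraries 1 to 4 kept it. The leading alpha members were PCDHA10, PCDHA3 and PCDHA11, with 5.48, 3.28 and 2.12. The value of PCDHA11 holds 1 read of library 5, without which it was 1.16 over the other libraries, below the 1.88 of PCDHAC2. The other listed members reached down to 0.0562 (PCDHB9) in the beta and 0.0656 (PCDHAC1) in the alpha cluster, and PCDHA1 and PCDHA8 were not listed by Xenome.

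Of the 51 clustered members that Xenome lists above 0, 11 were over 10 times as high with Kallisto in scaled mean counts and 31 were within 2 times. This count has no minimum, and the same count over all protein-coding genes was not made. PCDHB9 and PCDHAC1, both among the 11, have 2 reads each with Xenome. PCDHGA10 reached a mean count of 839.7 against 53.5 with Xenome. PCDHA4 had 250.1 with Kallisto and 0.122 with Xenome, and PCDHB1 had 152 and 0.488. The genes beside them varied. PCDHA3 had 3.76 with Kallisto and 3.28 with Xenome, but PCDHA5, on the other side of PCDHA4, had 22.5 and 0.475. PCDHB2, next to PCDHB1, had 45.6 and 7.37, and PCDHGB7, next to PCDHGA10, had 8.90 and 6.55.

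**Figure D2:**
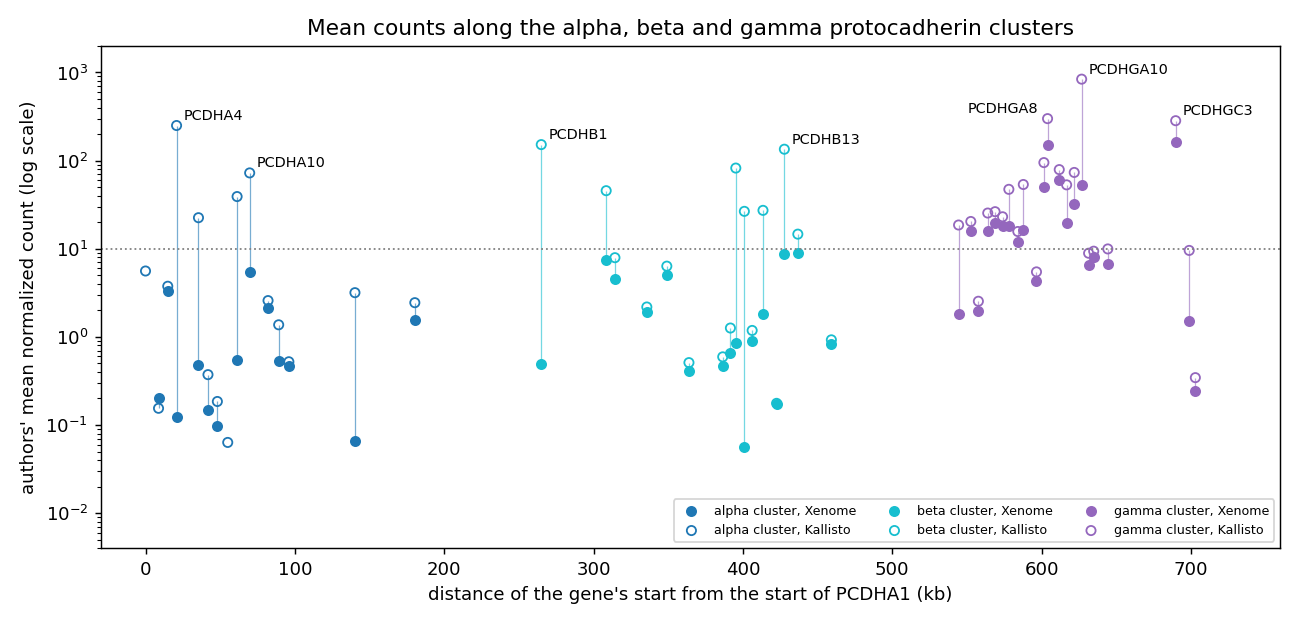
Mean normalized counts (log axis) of the alpha, beta and gamma members against the distance of each gene's start from that of PCDHA1 in kb, filled for Xenome and open for Kallisto, with a line joining both values of a gene and a dotted line at 10. The long lines of PCDHA4, PCDHB1 and PCDHGA10 end with Kallisto at 250.1, 152 and 839.7. Without a minimum count, 11 of 51 genes, PCDHB9 and PCDHA5 among them, differ by over 10 times in scaled mean counts. The same count over all protein-coding genes was not made.

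The pipelines were then compared over the 52 members whose mean count reached 10 in Xenome or Kallisto and was above 0 in Xenome. In scaled mean counts, Kallisto was over 2 times as high as Xenome for 28 of them (53.8%) and over 10 times as high for 20 (38.5%), with a median ratio of 2.45. The same filter left 14863 protein-coding genes, of which 16.7% were over 2 times and 7.97% over 10 times as high, with a median ratio of 0.944. Of the 52 members, 21 passed the filter through Kallisto alone (40.4%, against 10.2% of the protein-coding genes) and so had to be higher there. With a minimum of 10 in Xenome alone, an alternative chosen after seeing the data, 8 of 31 members (25.8%) were over 2 times and 3 (9.68%) over 10 times as high, against 7.80% and 1.47% of 13347 protein-coding genes. Genes are not replicates and members of a cluster share sequence, so no test was made on these shares.

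The filter bore on the ratio of some families. Over all genes that passed it, the median was 0.938 for type I cadherins (4 genes), 0.851 for atypical cadherins (7 genes), 1.72 for the gamma cluster (15 genes), 6.04 for type II cadherins (8 genes), 14.1 for the beta cluster (7 genes), 26.1 for non-clustered protocadherins (7 genes) and 54.7 for the alpha cluster (4 genes). All 4 alpha and all 7 beta genes passed through Kallisto alone, as did 4 type II, 3 atypical, 2 non-clustered and 1 of the gamma genes, so these medians are no measure of a difference between families. With a minimum of 10 in Xenome alone, the median was 1.00 for type II cadherins (4 genes), 0.787 for atypical cadherins (4 genes), 1.70 for non-clustered protocadherins (5 genes) and 1.65 for the gamma cluster (14 genes), and no alpha or beta gene was left. With no filter, it was 7.95 for non-clustered protocadherins, 2.27 for the alpha and 1.55 for the beta cluster. The atypical genes over 10 times as high with Kallisto were CDHR4, CDH13 and CDH17, at 13.6, 14.5 and 148 times, and all 3 had passed through Kallisto alone. The 1 such gamma gene was PCDHGA10, at 14.3 times. The Xenome values of CDHR4 and CDH17 rest on 4 and 5 reads, so the ratios of both are not firm. Without library 6, the mean count of CDHR4 with Xenome was 0.548 in place of 1.99.

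The 5 largest ratios were those of PCDHA4 (1869.7 times), CDH6 (991), CDH12 (727), PCDHB9 (431) and PCDHB1 (285). All 5 passed the filter through Kallisto alone, and their Xenome values rest on 4, 4, 24, 2 and 15 reads. None of these reads was in libraries 4 to 6, and 1 more read in library 6, which has the smallest size factor, would bring the ratios to 138, 69.7, 240, 15.3 and 68.8, so neither their size nor their order is firm. CDH6 (K-cadherin, of kidney) had a mean count of 126 with Kallisto against 0.116 with Xenome, and CDH12, of brain, had 602 against 0.756. PCDHB9 had 26.6 against 0.0562. PCDH9, with the shared stretch shown above, was 128 times as high with Kallisto, and CDH8 5.27 times. PCDH20 was 47.3 times as high, and 91.3% of its exonic bases lay in the exons of another annotated gene, ENSG00000197991.

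The 5 smallest ratios were those of CDH11 (0.344), CDHR3 (0.494), CDH26 (0.741), CDH15 (0.754) and CDHR2 (0.833). PCDH18, below the filter, had a mean count of 1.56 with Xenome, was not listed by XenofilteR and had 0.0285 with Kallisto. Its value with Xenome rests on 1 read in library 6, without which it was 0.0338.

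Shared sequence is given here as a description of the genes on both sides of 10 times. For the 20 members over 10 times as high with Kallisto, between 0.0305% and 7.77% of the 31-base sequences occurred in mouse transcripts, with a median of 0.893%. For the remaining 32 the range was 0% to 6.26%, with a median of 0.615%. For sequences found in other human genes, the medians were 24.0% and 16.7%. Of the 20 members, 17 had a mean count below 10 with Xenome and so passed through Kallisto alone, against 4 of the 32, and the median mean counts were 1.33 and 29.7. Neither the overlap with mouse transcripts nor that with human genes was tested as a source of the ratios.

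**Figure D3:**
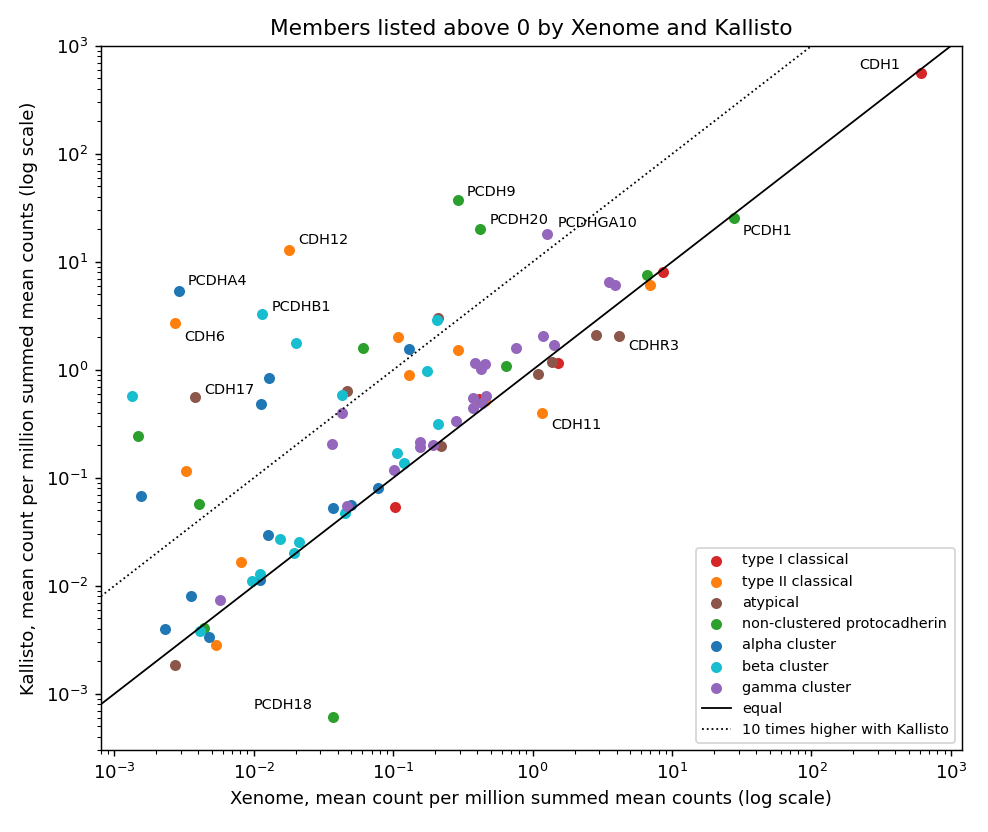
Scaled mean counts (per 1000000 of the pipeline's sum) with Kallisto against Xenome (both log axes) for members listed above 0 by both, colored by family, with lines of equal values and of 10 times higher values with Kallisto. CDH1, PCDH1 and most gamma members lie near the line of equality, CDH11 and PCDH18 lie below it, and PCDHA4, CDH6, CDH12, PCDH9 and PCDH20 lie above the dotted line.

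CDH11 had 0, 0, 2, 20, 15 and 16 reads in libraries 1 to 6 with Xenome and 0, 0, 2, 9, 4 and 9 with XenofilteR. Library 4 had a normalized count of 46.9 (exact 95% Poisson interval 28.6 to 72.4) and library 6 one of 146.9 (84.0 to 238.6) with Xenome. Without library 6, the mean count of CDH11 over the other 5 libraries was 30.2 in place of 49.6. XenofilteR thus gave CDH11 29 fewer reads than the 53 of Xenome, with the same reads in libraries 1 to 3. Fewer cells of a type and less RNA per cell cannot be told apart in such bulk libraries. What part mouse reads had in these counts was not tested. COL1A2, a collagen gene on the list of osteoblast and mesenchyme markers, had 1, 0, 0, 12, 19 and 12 reads with Xenome, and POSTN 0, 0, 0, 1, 2 and 1. Libraries 4 to 6 make up 4.05% of the summed size factors, and of the 7 solved genes of that list the share of reads in them lay above this for COL1A2, POSTN and TWIST1 (2, 1, 2, 2, 1 and 0 reads), by the exact 95% binomial interval. It lay below for COL3A1, with 394, 321, 270, 12, 5 and 2 reads, and the intervals of BGLAP, IBSP and ALPL included it. BGLAP, IBSP and ALPL had 87, 54 and 3 reads in all, too few for an interval below 4.05% even with 0 reads in libraries 4 to 6. These reads are those of Xenome, and each library count of POSTN and TWIST1 lies under the floor of 3 reads. With XenofilteR, 8 of the 11 genes of the list had a higher mean count than with Xenome, among them COL3A1 (389 against 43.9) and COL1A2 (264 against 45.0), while that of CDH11 was lower. Their part in the reads of CDH11 was not tested.

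CDH2 had 1, 1, 1, 4, 1 and 1 reads with Xenome and 1, 2, 1, 2, 1 and 0 with XenofilteR. With Xenome, the normalized count of library 4 was 9.38 (2.56 to 24.0), above the upper limits of libraries 1 to 3 (0.940, 1.05 and 1.15), and with XenofilteR it was 4.69 (0.568 to 16.9), which overlapped theirs. Most of its mean count of 4.34 came from libraries 4 to 6, where 1 read adds between 0.391 and 1.53. CDH15 had 443, 431, 393, 20, 2 and 10 reads, or normalized counts of 74.8, 81.1, 80.8, 46.9, 13.8 and 91.8. CDH18 had 67, 147, 134, 4, 3 and 2 reads. In library 1 its normalized count was 11.3 (8.76 to 14.4), below the 27.7 (23.4 to 32.5) of library 2 and the 27.6 (23.1 to 32.6) of library 3, beyond counting error. CDH8 had 89, 65, 50, 2, 2 and 2 reads, CDH4 149, 117, 111, 3, 4 and 0, and CDH19 44, 53, 37, 1, 0 and 0.

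The reads of Xenome differed among members with large Kallisto values. CDH12 had 8, 6, 10, 0, 0 and 0 reads, CDH6 had 3, 1, 0, 0, 0 and 0, and PCDHA4 had 1, 3, 0, 0, 0 and 0. PCDH9 had 90, 66, 56, 11, 0 and 1 reads and PCDH20 127, 124, 112, 10, 1 and 1. The values of Kallisto could not be split into libraries.

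CDHR5 had 337, 270, 193, 39, 11 and 4 reads, and CDHR2 had 340, 318, 325, 20, 4 and 2. The gamma gene PCDHGB5 had 356, 320, 297, 18, 4 and 12 reads, and its normalized counts in libraries 1 to 3 were 60.1, 60.2 and 61.1, within counting error of each other. PCDHGA10 had 263, 291, 282, 20, 5 and 9 reads. The leading alpha gene PCDHA10 had 52, 61, 50, 1, 0 and 0. The beta gene PCDHB14 had 61, 66, 61, 1, 1 and 1, and PCDHB13 had 67, 101, 84, 2, 0 and 0. Of the 76 solved members, 15 had a read in every library and 30 had none in libraries 4 to 6.

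**Figure D4:**
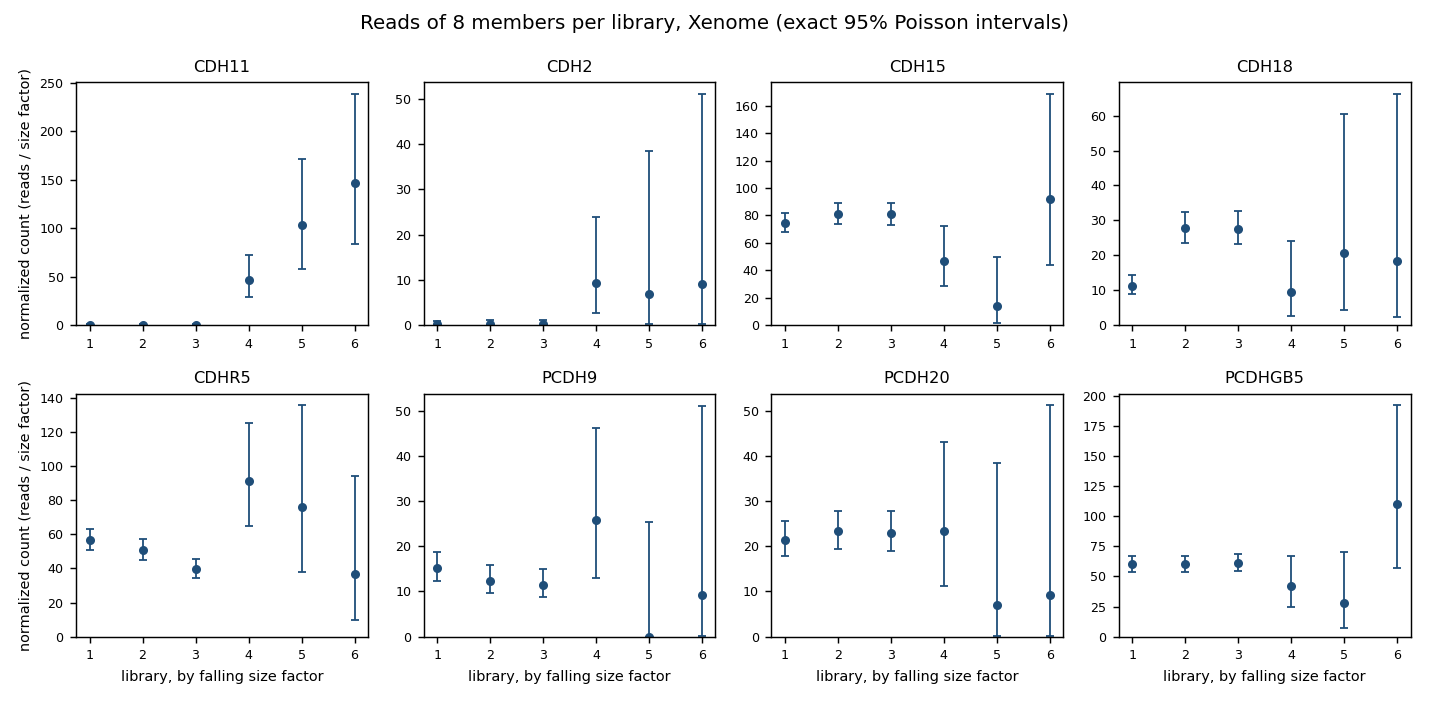
Normalized counts (reads divided by the size factor, linear axes from 0) of 8 members in libraries 1 to 6 with Xenome, ordered by falling size factor, with exact 95% Poisson intervals that cover counting error only. CDH11 is at or near 0 in libraries 1 to 3 and at 46.9, 103.6 and 146.9 in libraries 4 to 6, CDH18 is low in library 1, and the intervals of libraries 4 to 6 are wide.

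For most members, the reads of Xenome and XenofilteR were nearly the same. Of 75 members solved in both, 49 had the same reads in each of the 6 libraries and 72 differed by at most 5 reads in all. The 3 exceptions, picked after their values were seen, were CDH11 (53 and 24 reads), CDH18 (357 and 347) and CDHR2 (1009 and 1003). A limit of 5 reads does not show losses of members with few reads, such as CDH2 (9 and 7) and CDH9 (4 and 3).

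Several genes that work with the cadherins were abundant in the same libraries. The catenins CTNNA1, CTNNB1 and JUP, which tie classical cadherins to actin, had mean counts of 15356, 11998 and 12786 with Xenome. CTNND1 (p120 catenin, which keeps cadherins on the surface) had 1419 with Xenome and 13326 with Kallisto, a difference whose source was not tested. Of the 9 catenins and cytoplasmic partners, 8 had a mean count of at least 10 with Xenome (66.9% of all protein-coding genes did). CTNNA2 and CTNNA3 had 131 and 89.0, and CTNND2, of neurons, had 2.01. ADAM10, a surface protease that cleaves cadherins, had 11849.8.

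In the rest of the cadherin superfamily, 13 of 20 genes had a mean count of at least 10 with Xenome (66.9% of all protein-coding genes did) and 7 did not. The desmosomal cadherin DSG2 had 16363 and its partner DSC2 3238, the calsyntenin CLSTN1 had 11182, and FAT1 had 6454. FAT4 was the lowest at 0.643. DCHS2 had 1.599, 0.0684 and 447 with Xenome, XenofilteR and Kallisto, so that large Kallisto values also occurred outside the 91 members.

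The labeled cell type was checked by its markers. All 8 listed markers of prostate luminal epithelium were high with Xenome, from TMPRSS2 at 4603 to KLK3 at 51038, and KLK2 was not listed. The luminal keratin genes KRT8 and KRT18 had 7803 and 9285, and EPCAM had 5199.6.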

How the data were processed

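Stranded mRNA libraries (KAPA kit) were sequenced as 50 bp pairs. The authors kept human reads with Xenome and counted them with featureCounts after HISAT2 alignment to GRCh38, or aligned to GRCh38 and GRCm38 and dropped mouse reads with XenofilteR, or quantified a joined human and mouse transcriptome with Kallisto. The annotation release and strand setting of the counting are not given in the sources used here. The deposited table holds, per gene and pipeline, the authors' mean of counts divided by DESeq2 size factors over 6 libraries, which was used, and 15 columns of the authors' comparison (log2 fold change, its standard error, Wald statistic, p-value and adjusted p-value), which were not. The edgeR test planned for counts per library was not run, because the table holds none. Precision is lowest in the libraries with the smallest size factors.

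The 41734 rows held 21 repeats, which were dropped. Mean counts were divided by the sum over genes and by exonic length (GENCODE release 44), and all 91 members overlapped their GENCODE position, 60 with the same start and end. Whole reads of each library were solved by exhaustive search up to a mean count of 65, keeping genes with 1 solution at the 15 digits of the file. Below a mean of 3, all 15274 genes of Xenome and all 15160 of XenofilteR had a solution, and the search recovered 100% of 253 and 254 sets of reads drawn for a test on simulated data. Intervals cover counting error only. Shared sequence was counted as distinct 31-base sequences found in GENCODE release M21 mouse transcripts or in other human genes. Protein sequences were not used here. Named were all classical cadherins, other non-clustered members whose mean count reached 50 in any pipeline, the 3 highest of each cluster, and the 5 largest and 5 smallest ratios of Kallisto to Xenome. A few others are named as examples. Members, groups and lists were chosen with earlier results of these data known. The software was matplotlib 3.10.9, scipy 1.17.1, pandas 2.3.3 and numpy 2.4.6 under python 3.11.15. The alternatives were the other pipelines, other minimum counts, other lengths and a wider tolerance.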

Additional observations from a re-analysis of the deposited data

How the results depend on the processing

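With Xenome and with XenofilteR, 31 members reached a mean count of 10. It moved to 52 with Kallisto, to 14 at a minimum of 50 and to 86 with no filter. The share of CDH1 in the summed mean count of the members was 88.0% and moved to 73.5% with Kallisto, and that of all non-clustered members was 97.5% and moved to 91.8% with Kallisto. The members made up 0.0727% of the summed mean count of protein-coding genes, 0.0719% with XenofilteR and 0.0769% with Kallisto. Of the 10 members with the highest level per kilobase with Xenome, 9 were also among the 10 highest without division by length or with coding length. Chosen after seeing the data, exonic bases of the gene alone kept 8, XenofilteR kept 10 and Kallisto kept 6.

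The median ratio of Kallisto to Xenome depended on the filter. At a minimum of 50 in Xenome or Kallisto it moved to 18.9 for type II cadherins (5 genes) and 13.9 for non-clustered protocadherins (6 genes). For the alpha cluster it moved to 941 (2 genes) and for the beta cluster to 88.1 (3 genes). With Xenome, 1, 2, 0 and 0 of these genes reached 50. The others passed through Kallisto alone and so had to be higher there. With no filter the median ratio moved to 7.95 for non-clustered protocadherins, 2.27 for the alpha cluster and 1.55 for the beta cluster. Chosen after seeing the data, a minimum of 10 in Xenome alone moved the members over 10 times as high with Kallisto from 20 to 3, and the median ratio to 1.00 for type II cadherins and 1.70 for non-clustered protocadherins. For type I, atypical and gamma members the median stayed within 1.5 times under each of these alternatives, and XenofilteR in place of Xenome moved no family's median beyond that. Reads were solved for 76 members with XenofilteR too. A tolerance 10 times wider gave 77 with Xenome, which adds PCDHB2. With XenofilteR it lost CDH15 and PCDHGB5, which then had 3 and 2 solutions. The cause of the differences between pipelines was not tested. No paired analysis was possible because the deposited means carry no replicate number. Leaving out each solved library in turn, also chosen after seeing the data, gave CDH11 mean counts from 30.2 to 59.6 and CDH2 3.33 to 5.17 with Xenome. Of the 76 solved members, 32 moved by over 1.5 times without some library, and of the 22 with a mean count of at least 10, 2 moved by over 1.5 times, CDH11 without library 6 and PCDHGB3 from 11.9 to 7.42 without library 5. Depth limits the low members: 1 read in library 6 adds 1.53 to a mean count with Xenome.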

Other observations

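The 6 solved libraries fall into separate clusters by size factor with Xenome, 5.93, 5.31 and 4.86 on one side and 0.427, 0.145 and 0.109 on the other. The labels do not say which samples these are. Libraries 1 to 6 held 4669, 4372, 4185, 306, 107 and 82 reads of the 76 solved members together. Libraries 4 to 6 had 4.05% of the summed size factors and 3.61% of these reads, or 3.25% without CDH11.

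For single members, the exact 95% binomial interval of the share of reads in libraries 4 to 6 included 4.05% for 66 of the 76 members, lay above it for 4 and below it for 6 with Xenome. Of the 66, 39 had too few reads for an interval below 4.05% even with 0 reads in libraries 4 to 6. The 4 were CDH11 with 51 of 53 reads (96.2%, 87.0% to 99.5%), CDH2 with 6 of 9 (66.7%, 29.9% to 92.5%; 3 of 7 reads with XenofilteR), CDHR4 with 2 of 4 (50.0%, 6.76% to 93.2%) and CDHR5 with 54 of 854 (6.32%, 4.79% to 8.17%). The 6 were CDH15 with 32 of 1299 (2.46%, 1.69% to 3.46%), CDHR2 with 26 of 1009 (2.58%, 1.69% to 3.75%), PCDHGA4 with 10 of 454 (2.203%, 1.06% to 4.01%), CDH4 with 7 of 384 (1.82%, 0.736% to 3.72%), PCDHB13 with 2 of 254 (0.787%, 0.0955% to 2.82%) and PCDHA10 with 1 of 164 (0.610%, 0.0154% to 3.35%). Each library count of CDHR4, and those of CDH2 in every library but library 4, lie under the floor of 3 reads. The intervals cover counting error only and were not adjusted for the number of members, and they compare libraries, not conditions. The same count over all solved genes was not made, so the 4 and 6 of 76 members stand without a background.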
